A study of Mus musculus with 2 samples.

Results

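The 10 genes described here make and load the peptides that MHC class I molecules carry to the cell surface. They were chosen by name, as the 3 catalytic subunits of the immunoproteasome (*Psmb8*, *Psmb9* and *Psmb10*), the 2 subunits of the PA28 activator (*Psme1* and *Psme2*), the peptide transporter (*Tap1* and *Tap2*), its adaptor tapasin (*Tapbp*), the class I light chain (*B2m*) and the trimming peptidase *Erap1*. Every probe set that names only 1 of these genes was used. This gave 16 probe sets for 9 of the 10 genes, out of 18193 genes measured in the series. The only probe set of *Psme2* also names *Psme2b* and was left out. The RNA came from RAW264.7, a mouse macrophage line that can form osteoclasts when given RANKL. It was transfected with scramble siRNA or with 1 siRNA against *Flcn*, which encodes folliculin, and 24 hours later RPMI-1640 was replaced by MEM, both with 10% FCS. RNA was taken after 48 hours more, and neither the labels nor the array methods name RANKL. Each condition was measured on 1 Affymetrix Mouse Genome 430 2.0 array, so that no difference below has a replicate error or a test.

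Most cells cut worn or faulty proteins with the constitutive proteasome, and interferon induces immunosubunits that take the place of its catalytic subunits. The peptides pass through the TAP transporter into the endoplasmic reticulum, where tapasin holds empty class I molecules beside the transporter and ERAP1 shortens peptides that are too long. A class I molecule reaches the surface as a heavy chain, beta-2 microglobulin and a peptide, which CD8+ T cells then inspect. Macrophages carry this pathway at rest and raise it in response to interferon gamma.

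*Psmb9* and *Tap1* are transcribed in opposite directions from start sites 226 bases apart, and with *Psmb8* and *Tap2* they are 4 adjacent protein-coding genes of the MHC on chromosome 17. The segment between both start sites is shown because it lies between *Tap1*, the member with the largest difference below, and *Psmb9*, which differed less. It is given on the *Tap1* strand, from the base after the *Psmb9* start to the base before the *Tap1* start (RefSeq, GRCm38.p6, chr17:34187331-34187555, plus strand). Capitals mark a CCAAT box (CCAAT) next to *Psmb9* and a GC box (GGGCGG, here on the opposite strand).
*Psmb9-Tap1* segment: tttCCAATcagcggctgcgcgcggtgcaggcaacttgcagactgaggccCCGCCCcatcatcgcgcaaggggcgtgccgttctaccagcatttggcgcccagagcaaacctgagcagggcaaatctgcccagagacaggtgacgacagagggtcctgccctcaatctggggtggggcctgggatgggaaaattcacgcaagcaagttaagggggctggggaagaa

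The 225 bases have a GC content of 61.3%. They come from the C57BL/6J reference, whereas RAW264.7 cells derive from a BALB/c mouse, whose MHC differs, so the cells may not carry exactly these letters.

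Promoter windows from 250 bases before to 50 bases after the start site were present for 9 of the 10 members, all but *Tap2*. On both strands they were searched for 2 motifs of factors that act on this pathway or downstream of folliculin. These were the core of the interferon-stimulated response element bound by IRF factors (GAAA, any 2 bases, GAAA) and the E-box bound by TFE3 and its relatives (CACGTG). The segment above holds neither of them. An interferon-stimulated response element core was in the windows of 3 members, *B2m*, *Erap1* and *Psme1*, and in 3.44% of 32851 windows of all genes. The E-box was in those of *Psmb10* and *Erap1* and in 7.15% of all windows. GC and CCAAT boxes, searched in the same windows after the segment had been seen, were in those of 6 and 4 members and in 35.7% and 37.4% of all windows. A match is a description of these letters, not a bound site. The matches are shown in capitals, each on its gene's strand, so that they can be read against the signals of the same genes.
*B2m*, response element core, chr2:122147538-122147567, plus strand: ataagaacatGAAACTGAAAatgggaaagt
*Erap1*, response element core, chr13:74639839-74639868, plus strand: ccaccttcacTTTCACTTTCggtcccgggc
*Psme1*, response element core, chr14:55578493-55578522, plus strand: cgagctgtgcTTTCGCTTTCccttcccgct
*Psmb10*, E-box, chr8:105938493-105938518, minus strand: tcccaacgccCACGTGgtggcacgcc
*Erap1*, E-box, chr13:74639813-74639838, plus strand: ccctcagcccCACGTGccctgccggt

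The deposited values are linear GCOS signals per probe set. A gene's value is that of its brightest probe set, by the geometric mean over both arrays. Before ratios were taken, any signal below the median of its array (12.8 for scramble siRNA, 13.6 for *Flcn* siRNA) was set to that median. Differences are log2 ratios, *Flcn* siRNA divided by scramble siRNA. A gene is called higher or lower at 1.5-fold, which is 0.58 on this scale. The signal filter asked for a geometric mean of 13.2 or more, and all 9 measured members passed it. As a technical yardstick, log2 ratios at different probe sets of the same gene had a median SD of 0.19 over 5034 genes, which is no replicate error. *Flcn* gave -0.22 and -0.52 at its probe sets above the filter, and *Gpnmb*, a known TFE3 target, was 8.49-fold higher. All 10 macrophage markers examined were above the filter, with summed signals of 27545 and 27324 on the scramble and *Flcn* siRNA arrays. Of 43 markers of 7 other lineages, 5 were, and none of the 43 exceeded a signal of 27.5. Of the 5, *Itgax* at 14.2 and 26.2 and *S100a8* at 11.3 and 27.5 were higher with *Flcn* siRNA (scramble siRNA is given first). The others were lower, *Krt5* at 19.9 and 11.2, *Col1a2* at 18.3 and 12.7 and *Epcam* at 14.8 and 12.7.

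Of the 9 members, 1 was lower and 0 were higher by 1.5-fold or more with *Flcn* siRNA. The lower one was *Tap1*, and the other 8 lay between -0.13 and 0.29 on the log2 scale. The members' share past 1.5-fold, 11.1%, was close to that of all 10285 genes above the filter, 11.4%, and among all genes 5.85% were higher (602) and 5.52% were lower (568). So the count says nothing particular of the members. After division of the arrays by their median signals, 418 genes were higher and 807 were lower, and *Tap1* was again the 1 member called. At the deposited scaling, the median log2 ratio of the members was -0.045, with 3 members above 0 and 6 below. The median over all genes was 0.013, and 51.7% of them lay above 0. Without *Tap1* the members' median was -0.043. In bulk RNA, fewer cells with a transcript and less of it per cell cannot be told apart.

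**Figure D1:**
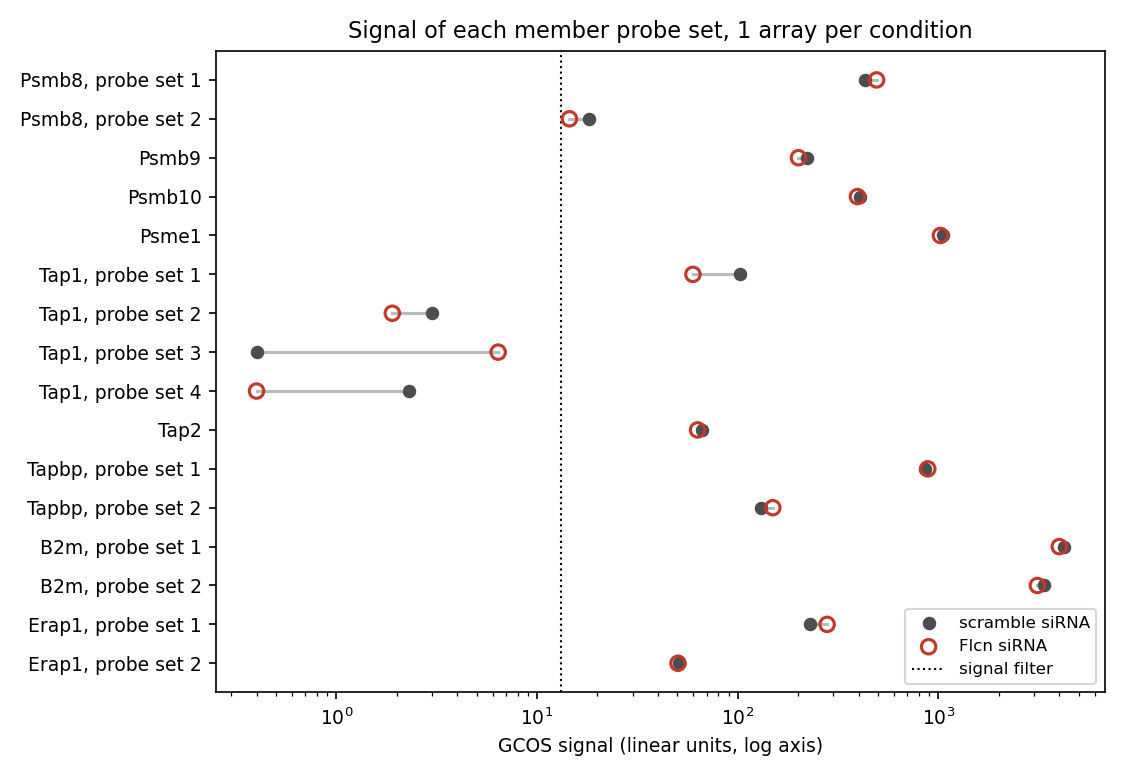
GCOS signal (log axis) of the 16 probe sets of the members, with filled points for scramble siRNA and open points for *Flcn* siRNA, 1 array each; the dotted line is the signal filter at 13.2. Rows are to be read one at a time, since probe sets differ in brightness; the points of most rows overlap, those of the first *Tap1* probe set do not, and 3 *Tap1* probe sets lie left of the filter.

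Among the immunosubunits, *Psmb8* (LMP7), which replaces the chymotrypsin-like subunit, had a signal of 430 with scramble siRNA and 492 with *Flcn* siRNA, a log2 ratio of 0.19. Its other probe set was near the filter, at 18.2 and 14.5, and pointed the other way, with -0.33. *Psmb9* (LMP2), which replaces the caspase-like subunit, had 220 and 201, a log2 ratio of -0.13. *Psmb10* (MECL-1), which replaces the trypsin-like subunit, had 408 and 395, a log2 ratio of -0.045. The 3 subunits, which are built into new proteasomes together, thus lay on both sides of 0 and none differed by as much as 1.5-fold.

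The subunits they replace were all slightly above 0. *Psmb5* had 1205 and 1355 (log2 ratio 0.17), *Psmb6* had 1112 and 1149 (0.048, or -0.039 after median scaling) and *Psmb7* had 1370 and 1677 (0.29). The difference of log2 ratios between an immunosubunit and its counterpart depends little on how the arrays are scaled. It was 0.026 for *Psmb8* against *Psmb5*, -0.18 for *Psmb9* against *Psmb6* and -0.34 for *Psmb10* against *Psmb7*. In the last pair the signal of the constitutive subunit was higher and that of the immunosubunit was slightly lower. With the mean of both *Psmb8* probe sets the first of these differences was -0.24.

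*Psme1* encodes PA28 alpha, part of the ring that opens the gate of the 20S core. It had a signal of 1054 with scramble siRNA and 1024 with *Flcn* siRNA, a log2 ratio of -0.042. In the ranking of all genes by ratio, 42.4% lay below *Psme1*.

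*Tap1*, one of the chains of the ATP-driven peptide transporter, had a signal of 102 with scramble siRNA and 59.8 with *Flcn* siRNA. This is 1.71-fold lower, a log2 ratio of -0.78, and 2.59% of all genes had a lower ratio. Of 3227 genes whose mean signal lay within 2-fold of that of *Tap1*, 5.95% were lower by 1.5-fold or more. The value rests on 1 probe set, because the other 3 probe sets of *Tap1* had signals from 0.4 to 6.4, under the medians of both arrays. When those were averaged in, the log2 ratio was -0.13.

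*Tap2*, the partner chain of the same transporter, had 66.2 and 63.1, a log2 ratio of -0.069. The log2 ratios of the partners, which form the transporter together, differed by 0.71. *Tapbp*, which encodes tapasin, had 856 and 885, a log2 ratio of 0.049, and 130 and 150 at its other probe set, with 0.20. The first of these turned to -0.039 after median scaling. Of the 4 adjacent genes *Psmb9*, *Tap1*, *Psmb8* and *Tap2*, only *Tap1* was past 1.5-fold, and the other 3 lay between -0.13 and 0.19. The divergent pair on either side of the printed segment differed in log2 ratio by 0.64.

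*B2m*, the light chain that every classical class I molecule needs, had a signal of 4245 with scramble siRNA and 4004 with *Flcn* siRNA, a log2 ratio of -0.084. Its other probe set had 3344 and 3115, with -0.10, so that both gave nearly the same small difference. *Erap1*, the aminopeptidase that trims peptides in the endoplasmic reticulum, had 229 and 279, a log2 ratio of 0.29, the highest of the members. Its other probe set had 51.2 and 50.4, with -0.023. The members whose windows held a response element core, *B2m*, *Erap1* and *Psme1*, had log2 ratios of -0.084, 0.29 and -0.042. Those with an E-box, *Psmb10* and *Erap1*, had -0.045 and 0.29. *Tap1*, the member that was called, had neither motif in its window. Whether a motif bears on these ratios was not tested.

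**Figure D2:**
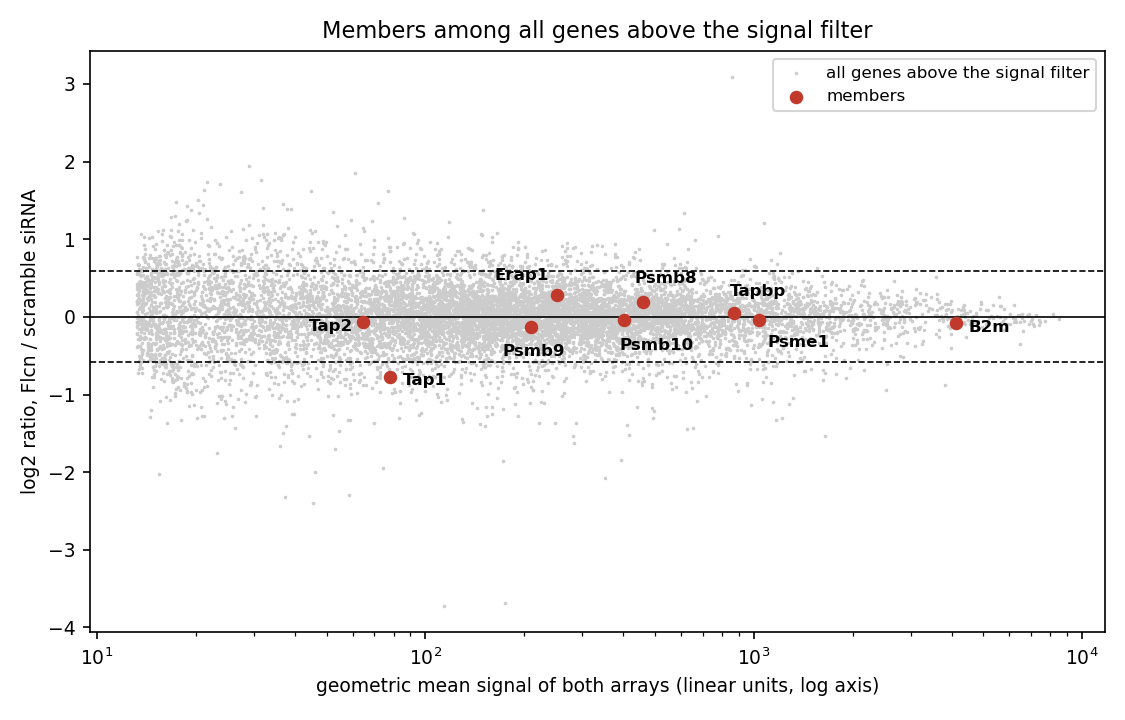
Log2 ratio (*Flcn* siRNA divided by scramble siRNA) against the geometric mean signal of both arrays (log axis) for 10285 genes above the filter (grey) and the 9 measured members (red); dashed lines mark 1.5-fold. *Tap1*, at -0.78, lies below the lower line and the other 8 members lie between the lines.

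Of the other genes of the pathway, 126 were listed in 9 groups, of which 112 had a probe set of their own and 100 were above the filter. Of these 100 genes, 9 were lower and 5 were higher by 1.5-fold or more. Over all 10285 genes above the filter, 5.52% were lower and 5.85% were higher. In each group the examples are the members with the highest and lowest ratios, unless stated otherwise.

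Class I heavy chains, which hold the peptide, were split. *H2-K1*, a classical heavy chain, had a signal of 2185 and 2139 (log2 ratio -0.031), and *H2-D1*, another, had 1765 and 1905 (0.11, or from -0.064 to 0.18 over its 8 probe sets above the filter). The nonclassical *H2-M3*, which presents formylated peptides, had 293 and 182 and was 1.61-fold lower. *H2-T24* had 42.9 and 26.3 and was 1.63-fold lower, while *Mr1*, which presents vitamin B metabolites, had 28.2 and 39.2 (0.48). Above the filter were 6 heavy chain genes, with 2 called lower, 0 called higher and a median of -0.068 on the log2 scale. This value depended on the processing and lay anywhere from -0.40 to 0.087 under the other settings. The low end came with only probe sets unique to 1 transcript, which left 4 genes, 0 of them above 0. The high end came without the signal filter. Heavy chains are near-identical in places, and of the 19 listed genes 9 had no probe set of their own. The probe sets used for *H2-K1* and *H2-D1* are not unique to 1 transcript, so their signals may not be of 1 heavy chain alone. With only unique probe sets *H2-D1* had -0.024. *H2-K1* is named with its values known, as a classical heavy chain beside *H2-D1*.

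Chaperones and editors of class I folding lay below 0 in 9 of 9 cases, with a median log2 ratio of -0.36, which ranged from -0.45 to -0.32 over the other ways of processing. *Tapbpl*, a tapasin relative that edits peptides outside the loading complex, had 94 and 50 and was 1.88-fold lower. With the mean of all its probe sets, which adds only probe sets under the filter, the log2 ratio was -0.41. *Sec61a1*, the pore subunit of the translocon, had 1884 and 1187 and was 1.59-fold lower, but was just under 1.5-fold (-0.57) with the mean of its 6 probe sets. Of the loading complex itself, *Calr*, which encodes calreticulin, had 4583 and 3472 (-0.40), and *Pdia3*, which encodes ERp57, had 2254 and 1759 (-0.36, with -0.92 at its other probe set above the filter), both named with their values known. The smallest differences were those of *Sec61b* (-0.14) and *P4hb* (-0.13). Apart from *Tapbpl*, these proteins serve many secretory proteins besides class I molecules. Tapasin, which is dedicated to class I loading, had 0.049, and its relative *Tapbpl* had -0.91.

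Cytosolic peptidases, which trim or destroy proteasome products, had 4 of 9 genes above 0 and a median of -0.031. *Thop1*, which degrades antigenic peptides, had 80.8 and 123.5 and was 1.53-fold higher, but was under 1.5-fold after median scaling. It was also under 1.5-fold with the mean of all its probe sets, which adds only probe sets under the filter. *Npepps* had 0.21, *Cndp2* had -0.27 and *Nrd1* had -0.28, and the probe sets of *Npepps* and of *Nrd1* above the filter lay on both sides of 0.

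For the shared subunits of the proteasome the side of 0 depended on the scaling. Of 12 other 20S genes 10 lay above 0, with a median of 0.089, but after median scaling 6 did, with a median of 0.0015. They ran from *Psmb1* (-0.21) and *Psma6* (-0.030) to *Psma5* (0.25) and *Psmb2* (0.39). The 3 probe sets of *Psma6* above the filter ranged from -0.55 to 0.22. Of 25 genes of the caps and of assembly 21 lay above 0, with a median of 0.17, and after median scaling 17 did, with a median of 0.081. Here *Psme3*, which encodes the nuclear PA28 gamma, had 0.41 and *Psmd3* had 0.39, while *Psmf1* had -0.022 and *Psme4*, which encodes PA200, had -0.48. The probe sets of *Psme4* ranged from -0.94 to 0.037. In neither group was any gene past 1.5-fold at the probe set used. With only probe sets unique to 1 transcript, 1 of the other 20S genes was higher by 1.5-fold or more.

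Regulators of class I genes had 8 of 22 genes above 0 (3 after median scaling) and a median of -0.15, with 3 lower and 0 higher by 1.5-fold or more. The lower ones were *Jak2*, a kinase of the interferon gamma receptor (155 and 92.5, 1.67-fold), *Stat2* (69.9 and 42.9, 1.63-fold) and its partner *Irf9* (218 and 134, 1.63-fold), the last named after its value was seen. The other *Jak2* probe set above the filter had -0.26, and with the mean of both *Jak2* was under 1.5-fold (-0.50). *Nlrc5*, the transactivator of class I promoters, had 119 and 86.2, a log2 ratio of -0.47, under the 1.5-fold limit, and *Irf1*, which drives *Tap1* and *Psmb9* after interferon, had 150 and 157, with 0.063. Both are named with their values known. The highest were *Ifngr2*, a chain of the interferon gamma receptor (0.35), and *Rfxap* (0.29). Their other probe sets above the filter had 0.0025 and -0.27.

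Of 10 genes of class II presentation 5 were above the filter, with a median of -0.10, which ranged from -0.46 to 0.087 over the other ways of processing. *H2-Aa*, *H2-Ab1*, *H2-Eb1* and *Ciita* had signals from 1.4 to 10.9. *Cd74*, the invariant chain, had 1675 and 784 and was 2.14-fold lower, and *H2-DMb2* had -0.50 from weak signals of 19.2 and 13.6. *Ctss*, which encodes cathepsin S, had 3738 and 4211 (0.17), and *H2-Oa* was at least 1.51-fold higher, from 11.3 to 19.3, or under 1.5-fold after median scaling or quantile normalization. Among genes of cross-presentation and costimulation, *Cd40* had 237 and 90.8 and was 2.61-fold lower. The 3 probe sets of *Cd40* above the filter ranged from -1.38 to -0.83, with a mean of -1.13. *Cd274*, the ligand PD-L1, had 25.1 and 51.2 and was 2.04-fold higher, and *Cd80* was at least 1.69-fold higher, from 10.5 to 21.6, or 0.21 on the log2 scale with the mean of all its probe sets. *Rab27a*, with 20 and 31.5, was the third higher gene of that group, named after its value was seen. It was under 1.5-fold after median scaling (0.57) or with the mean of all its probe sets (0.23). For *Cd80* and *Rab27a* that mean adds only probe sets under the filter. *Stx4a* had -0.28. The group had a median of 0.031 over 9 genes, or -0.057 after median scaling.

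**Figure D3:**
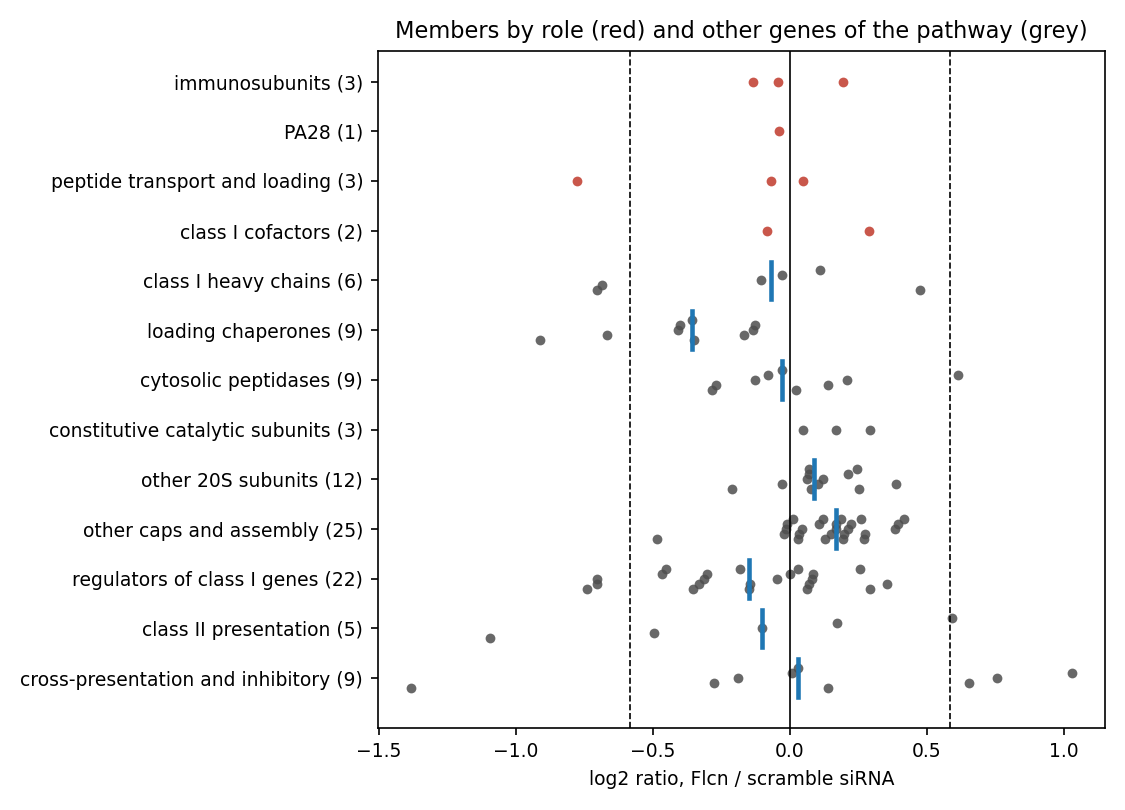
Log2 ratio (*Flcn* siRNA divided by scramble siRNA) for each gene above the filter, with the members by role in red and the other genes of the pathway in grey; the number of genes is in parentheses, a blue bar is the median where a group has 5 genes or more, and the dashed lines stand at 1.5-fold. The median of the loading chaperones, at -0.36, lies farthest to the left, and *Tap1* is the only red point outside the dashed lines.

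**Figure D4:**
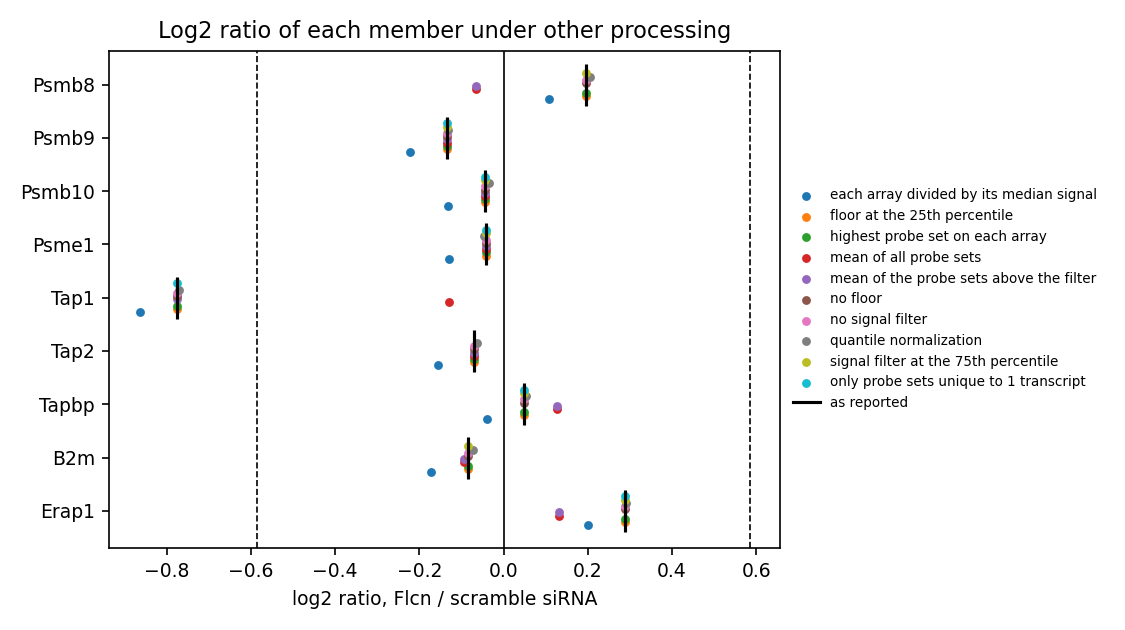
Log2 ratio of each measured member as reported (black bars) and under 10 other ways of processing (coloured points, with no point where the member had no value); dashed lines mark 1.5-fold. *Tap1* lay beyond the left line except with the mean of all its probe sets (-0.13), and *Psmb8* and *Tapbp* crossed 0 under some of them.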

How the data were processed

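The authors hybridised 1 biotin-labelled RNA per condition to an Affymetrix array and processed it with GCOS 1.0, per the methods and labels. The deposited table holds 1 linear signal intensity for each of 45101 probe sets, with a mean of 100 on both arrays after leaving out 2% at each end. No other GCOS setting or detection call is given in the sources used here. Of these, 34958 name 1 gene, 932 name several and 9211 are not in the platform annotation. The first were kept, without 13 of the 64 controls that are among them, which leaves 34945. Symbols were updated by Entrez ID to RefSeq, GRCm38.p6, where 34754 of the 34958 matched. The calculations, with Python 3.11.15, numpy 2.4.6 and pandas 2.3.3, were tested on simulated data. A single array per condition allows no test, and this number limits the precision. Scaling of the arrays, choice of probe set, floor, filter and fold were varied. The members, lists and motifs were chosen with earlier results of these data known. Genes named are the members, *Flcn* and *Gpnmb*, the 3 constitutive catalytic subunits and the 2 highest and 2 lowest genes of each other list, with further ones as stated. Some genes of the lists and a motif are not reported here.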

Additional observations from a re-analysis of the deposited data

How the results depend on the processing

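Under 10 other settings, and 1 more chosen after seeing the data, the median log2 ratio of the members stayed between -0.13 and -0.042. The number of members past 1.5-fold was 0 in place of 1 with the mean of all probe sets, which adds the dim *Tap1* probe sets, with a signal filter at the 75th percentile, which leaves 7 members and removes *Tap1*, and with calls at 2-fold. The *Psmb8* difference from *Psmb5* was -0.24 with the mean of all probe sets, also over those above the filter alone. Of all genes, 87 were higher and 113 lower at 2-fold, against 602 and 568 at 1.5-fold, and 213 and 268 with the filter at the 75th percentile. With the mean of all probe sets 365 were lower. After median scaling 418 were higher and 807 lower, and every log2 ratio dropped by 0.087. The 9 hybridisation control probe sets had a median log2 ratio of -0.17, and scaling to them was not tried. Of 85 values of single members, 82 moved by less than the SD between probe sets and 3 by more. The same held for 315 of 334 values of other named genes, and 266 of 288 medians and counts of the lists stayed within that SD or within 1.5 times, in a comparison added after seeing the data. Many of these values could not move by that much. The floor and filter settings left every remaining member's ratio unchanged, since the probe sets used lay above the floor on both arrays. Median scaling moved each ratio by 0.087, less than that SD, and averaging cannot change a gene with 1 probe set. So these counts say little about how firm the ratios are. No paired analysis was possible because each condition has 1 array.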
